A study of Rattus norvegicus with 6 samples.

Results

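The 34 genes described here carry out or control the synthesis of cholesterol and fatty acids, and they were taken by symbol from a deposited table of 17089 genes. All 34 had a row. They comprise 7 genes of the mevalonate steps, 11 of the steps from squalene to cholesterol, 5 regulators of the sterol regulatory element binding proteins (SREBPs), 4 genes of sterol carriage, liver X receptor (LXR) and efflux, and 7 of fatty acid synthesis. The study compared ventricular heart muscle cells given Tbx18, a T-box transcription factor, with cells given GFP, to describe the cells that its title calls pacemaker cells induced by Tbx18. Neonatal ventricular myocytes of Sprague Dawley rats, isolated at postnatal day 1 to 3, were transduced with adenovirus once isolated, and RNA was taken on day 4 of transduction. The Tbx18 group (n = 3 libraries) received an adenovirus carrying Tbx18, an internal ribosome entry site and GFP. The GFP group (n = 3 libraries) received an adenovirus carrying GFP, so both groups were exposed to virus and to GFP, and neither was left untransduced. The labels of every library in both groups also carry the words unpace and Control, which mark the cultures as unpaced. Cultures grew on fibronectin in M199-based medium, where 10% serum was lowered to 2% from day 3. Serum brings in lipoprotein cholesterol, and its amount was the same in both groups.

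Animal cells build cholesterol from acetyl-CoA through mevalonate, isoprenoids, squalene and lanosterol, and build fatty acids from the same precursor through malonyl-CoA. SREBP proteins switch on the genes of both routes. Scap carries SREBPs from the endoplasmic reticulum to the Golgi for cleavage, while Insig proteins hold Scap back when sterols are plentiful. Oxysterols activate LXR, which switches on cholesterol efflux pumps. Heart muscle cells draw most of their energy from fatty acid oxidation, and malonyl-CoA restrains that oxidation by blocking entry of fatty acids into mitochondria.

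Values are normalized counts, that is, reads per gene divided by a size factor for the library, as the authors deposited them. The libraries held 17074483 to 19800300 gene-assigned reads as recovered from these values. The Tbx18 gene itself had 6004, 6236 and 5937 normalized counts in Tbx18 libraries, against 312, 268 and 296 in GFP libraries, so every library matched its label. Differences were tested with limma on log2 of the normalized count plus 1 over 11230 genes, and a gene was called at a Benjamini-Hochberg adjusted p under 0.05. Whether the replicates came from separate isolations is not in the labels, so p-values measure only how far these libraries scatter, possibly for technical reasons. The median SD of the log2 values over the 34 genes was 0.11 within Tbx18 and 0.16 within GFP.

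In the Tbx18 libraries more cholesterol and fatty acid synthesis genes were higher than lower, most by less than 2-fold, while the Insig genes that restrain the pathway were lower. All 34 genes passed the filter on low values. Of them 15 rose and 5 fell, and 14 were not called. Over all genes tested 22.5% were called higher and 23.5% lower, together 46.0%. For 22 of the 34 the libraries of the groups did not overlap, against 57.2% of all genes tested. The median log2 fold change of the 34 was 0.22, against 0.01 for all genes tested. The scaling matters for changes of this size. When libraries were scaled to equal recovered reads, the median of all genes became 0.27 and that of the 34 became 0.49, and 23 of them were called higher and 1 lower. Under that scaling 4792 of all 11251 genes tested were called higher and 1351 lower. Of all called genes 78.0% were then higher, against 48.9% as deposited. The log2 fold changes of Fdft1, Sqle and Scd, not called under either scaling, were then above 0. Changes below are therefore relative to the typical gene of these libraries.

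**Figure D1:**
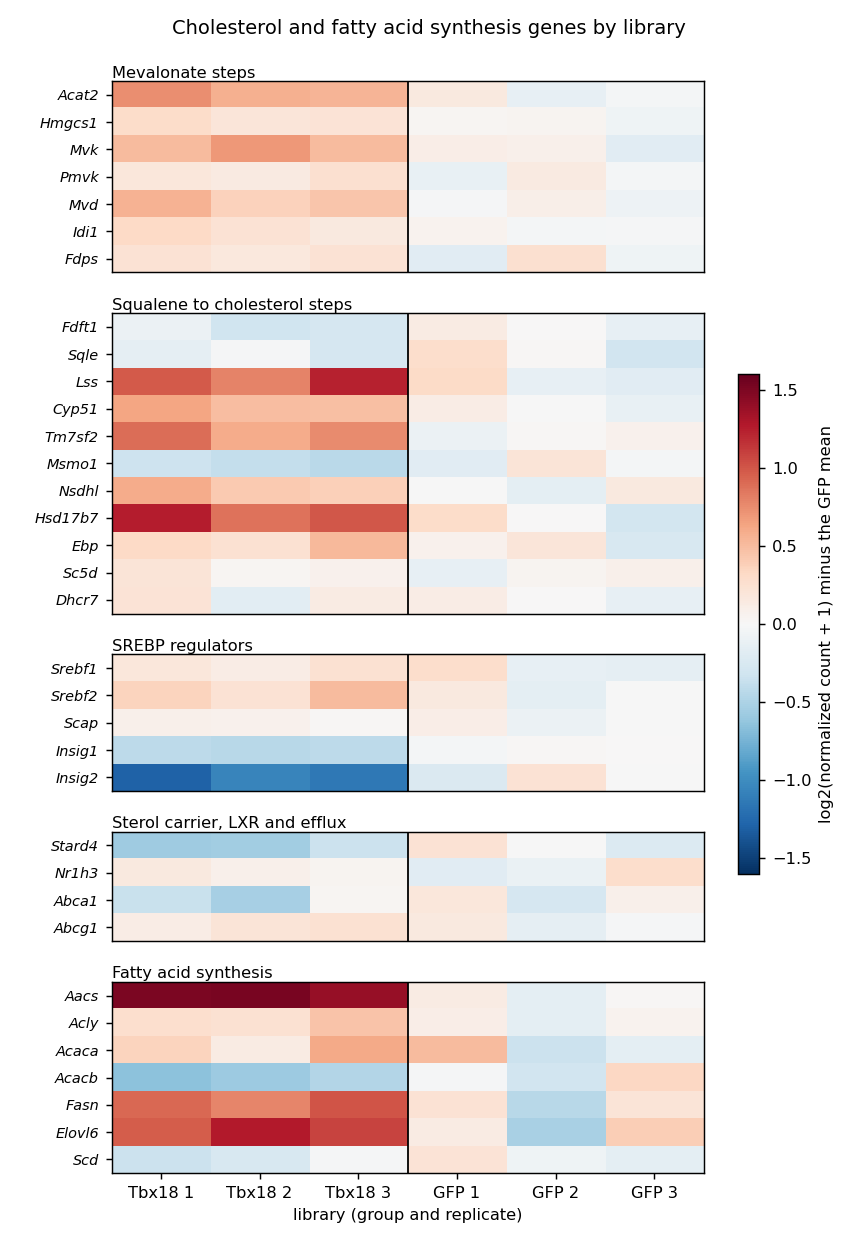
Heat map of the 34 genes (rows, by role) in the 3 Tbx18 and 3 GFP libraries (columns), coloured by log2(normalized count + 1) minus the GFP mean. Red prevails in the mevalonate and fatty acid blocks of the Tbx18 libraries, and the Insig2 row is the deepest blue, with a log2 fold change of -1.16.

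Markers of other cell types differed between the groups too. Of 11 tested fibroblast markers 10 rose, and their summed level was 516562 to 601193 normalized counts in the Tbx18 libraries, against 240761 to 280482 in the GFP libraries. None of them was at 0, but Col1a2 was read at only 10.1 to 26.3 in Tbx18 and 2.30 to 18.5 in GFP. Of 9 cardiomyocyte markers 7 fell, with a summed level of 528530 to 543289 in Tbx18 and 1094857 to 1168712 in GFP. Markers of heart muscle were therefore abundant in every library, as the label says, beside abundant fibroblast transcripts. In bulk RNA, fewer cells of a type and less RNA per cell cannot be told apart.

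Adipocytes and macrophages are among the other cells known for strong lipid synthesis or efflux. None of 4 tested adipocyte markers was called with limma, edgeR or DESeq2, and 0 had an unadjusted limma p under 0.05. After quantile normalization 2 were called lower, and 1 was called higher with equal recovered reads, without the limma trend or without the filter on low values. Lep was at 0 in every library, and Adipoq, Retn and Plin1 had means under 1 over all 6 libraries. Plin1 was read at 0.92, 2.05 and 0.88 in Tbx18 and Cidec at 5.52, 2.05 and 1.76, against 0 in every GFP library. Both were under the filter on low values. Pparg and Cfd had lower means in Tbx18, with overlapping groups. The summed adipocyte markers were 185 to 193 in Tbx18 and 159 to 204 in GFP. Of 11 tested macrophage markers 3 rose, with sums of 1628 to 2225 in Tbx18 and 1249 to 2290 in GFP, and Marco was at 0 throughout. That count was 1 when Tbx18 replicate 2 was left out, 0 for Tbx18 replicate 3, 6 for GFP replicate 2 and 1 for GFP replicate 3. Of 8 smooth muscle and pericyte markers 4 rose and 2 fell (sums 164841 to 171332 in Tbx18, 198083 to 213145 in GFP). Without Des, which heart muscle also expresses and which was set aside after its values were seen, the sums were 119769 to 131232 in Tbx18 and 78016 to 115342 in GFP. Of 8 endothelial markers 4 rose and 1 fell (2101 to 2256 in Tbx18, 1476 to 2428 in GFP), and of 4 tested epicardial and mesothelial markers 3 rose (423 to 506 in Tbx18, 237 to 273 in GFP). Of 2 tested Schwann markers 1 rose, and none did on leaving out Tbx18 replicate 1, 2 or 3 in turn (123 to 154 in Tbx18, 105 to 112 in GFP). The part of these cell types in the results below was not tested.

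The mevalonate steps turn acetyl-CoA into the isoprenoid building blocks. Of the 7 genes 5 rose, none fell and 2 were not called, with a median log2 fold change of 0.24. Acat2, the cytosolic thiolase that makes acetoacetyl-CoA, had 894, 792 and 780.3 normalized counts in Tbx18 libraries, against 596, 490.3 and 526 in GFP libraries. The groups did not overlap, and Acat2 was 1.53-fold higher (limma adjusted p = 0.00129; log2 fold change 0.61, SE 0.11). Mvk, mevalonate kinase, was read at 380.2, 432 and 380.1 in Tbx18, against 286, 282 and 236 in GFP. It was 1.48-fold higher, with every Tbx18 library above every GFP library (limma adjusted p = 0.00409; log2 fold change 0.57 with SE 0.12). Mvd, the decarboxylase that closes this part of the route, stood at 495, 432 and 457 in Tbx18 and 332, 358 and 318 in GFP, and was 1.37-fold higher (limma adjusted p = 0.00645).

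The other steps moved less. Hmgcs1, the synthase that commits acetoacetyl-CoA to the route, was read at 4259, 3969 and 4053 in Tbx18, against 3532, 3564 and 3314 in GFP. This 1.18-fold rise (log2 fold change 0.24, limma adjusted p = 0.0274) was not called without any 1 of the Tbx18 libraries or without GFP replicate 3, where adjusted p ran from 0.0652 to 0.137. Idi1, the isomerase of isopentenyl diphosphate, was read at 1259, 1183 and 1126 in Tbx18, against 1048, 990.4 and 998 in GFP. Its call (log2 fold change 0.23, limma adjusted p = 0.0450) was lost on leaving out any 1 of the Tbx18 libraries, GFP replicate 2 or GFP replicate 3, with adjusted p from 0.0550 to 0.201. Mevalonate genes called higher were therefore 3 without any 1 of the Tbx18 libraries or without GFP replicate 3. Over all genes tested fewer were called there too, 41.7% without GFP replicate 3, against 46.0% with every library. Without Tbx18 replicate 1, 2 or 3 that share was 35.3%, 36.7% or 36.1%. Counts with 1 library left out are to be read beside these shares. Pmvk, phosphomevalonate kinase, had 676 ± 26.3 in Tbx18 and 592 ± 54.9 in GFP and did not pass the test (SD, n = 3; limma adjusted p = 0.140, 95% interval of the log2 fold change -0.03 to 0.42). Fdps, farnesyl diphosphate synthase, had 3145, 3022 and 3158 in Tbx18, against 2372, 3189.9 and 2545 in GFP. The groups overlapped through GFP replicate 2, and the gene passed the test without that library (log2 fold change 0.34, limma adjusted p = 0.00901; 0.21 and 0.139 with it).

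The steps from squalene to cholesterol were uneven. Of the 11 genes 5 rose and 1 fell, 5 were not called, and their log2 fold changes ran from -0.38 to 1.04, with a median of 0.36. Fdft1 and Sqle, which make and oxidise squalene and stand at the entry, were not among the risers. Fdft1 was read at 1483, 1267 and 1314 in Tbx18, against 1736, 1596 and 1444 in GFP (log2 fold change -0.23, limma adjusted p = 0.0813). It was called lower without GFP replicate 3 (log2 fold change -0.30, limma adjusted p = 0.0428), which brought the genes called lower in this block to 2. Sqle was read at 1302, 1409.9 and 1193 in Tbx18, against 1749, 1449.8 and 1159.8 in GFP, with overlapping groups (limma adjusted p = 0.434, 95% interval of the log2 fold change -0.46 to 0.17).

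Lss, the cyclase that folds oxidised squalene into lanosterol, was read at 431, 378 and 513 in Tbx18, against 271, 199 and 193 in GFP. The lowest Tbx18 library was above the highest GFP library, and Lss was 1.99-fold higher (limma adjusted p = 0.000984; log2 fold change 1.00 with SE 0.17). Cyp51, the demethylase that acts on lanosterol, was read at 3977, 3621 and 3605 in Tbx18, against 2782, 2572 and 2379.5 in GFP. It was 1.45-fold higher, also without overlap (limma adjusted p = 0.000877; log2 fold change 0.54 with SE 0.09). Tm7sf2, the sterol reductase that acts next, had 208, 170.1 and 189.6 in Tbx18, against 105, 114 and 117 in GFP, and was 1.69-fold higher (limma adjusted p = 0.00219).

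The enzymes that strip the methyl groups from carbon 4 of the sterol ring did not move together. Msmo1, the oxidase of that step, was read at 1597, 1540.0 and 1479.9 in Tbx18, against 1767, 2316 and 1966 in GFP. It was the called faller of this block, 1.31-fold lower without overlap between groups (limma adjusted p = 0.0143; log2 fold change -0.38 with SE 0.10). Its call was lost without Tbx18 replicate 3 (log2 fold change -0.35, limma adjusted p = 0.0568), which left 0 genes of the block called lower. It was also lost after quantile normalization (-0.25, adjusted p = 0.0614) and with equal recovered reads (-0.12, adjusted p = 0.309). Nsdhl, the decarboxylating dehydrogenase, was read at 643, 574 and 559 in Tbx18, against 427, 383 and 478 in GFP, and was 1.38-fold higher (limma adjusted p = 0.00815). Hsd17b7, the reductase of the resulting ketone, was read at 90.2, 68.6 and 74.6 in Tbx18, against 45.7, 37.0 and 29.9 in GFP. It was 2.07-fold higher (limma adjusted p = 0.00433; log2 fold change 1.04 with SE 0.23), but its log2 fold change was 0.58 after quantile normalization, where limma adjusted p was 0.0511.

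The last steps showed no called change. Ebp, the sterol isomerase, had 224 ± 23.0 in Tbx18 and 175 ± 27.0 in GFP, without overlap between libraries (SD, n = 3; limma adjusted p = 0.0827). Sc5d, the desaturase, had 1133 ± 73.6 in Tbx18 and 1054 ± 84.3 in GFP (SD, n = 3; limma adjusted p = 0.389). Dhcr7, the reductase that yields cholesterol, had 478 ± 64.0 in Tbx18 and 456 ± 39.1 in GFP (SD, n = 3; limma adjusted p = 0.717). The 95% intervals of their log2 fold changes were 0.01 to 0.71, -0.11 to 0.32 and -0.22 to 0.34, so rises as large as that of Lss lay outside them.

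**Figure D2:**
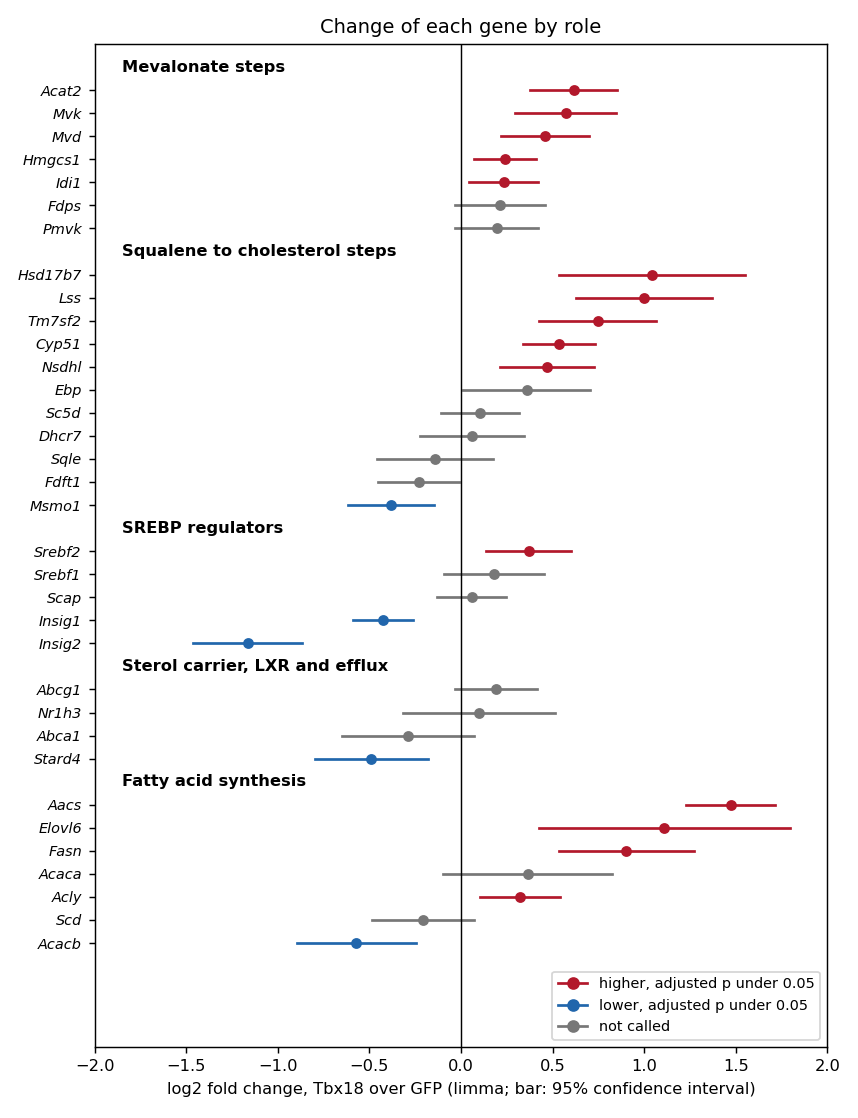
Log2 fold change of each of the 34 genes, Tbx18 over GFP, with its 95% confidence interval from limma, by role (red, called higher; blue, called lower; grey, not called; n = 3 libraries per group). Mevalonate genes lie right of 0, between 0.19 and 0.61, while sterol and fatty acid blocks hold genes on both sides.

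Promoter sequences were at hand for 26 of the 34 genes from RefSeq (build GRCr8), as windows of 250 bases before and 50 after the start of the gene. They were searched on both strands for the NF-Y box CCAAT, known to work beside SREBP sites, and for sterol regulatory elements. At least 1 CCAAT stood in the windows of 18 of the 26 genes, against 37.5% of all 33469 promoters. By result it stood in 10 of 13 genes that rose, 4 of 4 that fell and 4 of 9 that did not pass the test. Among roles the box was found for 5 of 6 mevalonate genes, 7 of 9 genes of the squalene to cholesterol steps, 4 of 5 regulators, 2 of 4 fatty acid synthesis genes and 0 of 2 genes of carriage, LXR and efflux. The sterol regulatory element spelled TCACNCCAC was in none of the 26 and in 1.12% of all promoters. A shorter spelling, CACNCCAC, tried after the first had no match, was in 3 of the 26, namely Acat2, Insig1 and Ebp, against 5.80% of all promoters. The LXR element, a pair of AGGTCA repeats with 4 bases between them, was in none of the 26 and in 2 of all promoters. This exact spelling and TCACNCCAC are rare in any promoter. Their absence from the 26 therefore cannot show that LXR or sterol sites are lacking.

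The 250 bases before the start are shown for 2 genes that rose and 2 that fell, in the sense of the gene, to show that the same box stands before genes of either direction. Capitals mark CCAAT or its reverse ATTGG, and in Insig1 also the shorter sterol element on the reverse strand. A match describes letters only and is not a bound site. The windows are Mvk at chr12:47819504-47819753 on the minus strand, Hsd17b7 at chr13:84722755-84723004 on the minus strand, Msmo1 at chr16:29746863-29747112 on the plus strand and Insig1 at chr4:8057770-8058019 on the minus strand.
Mvk: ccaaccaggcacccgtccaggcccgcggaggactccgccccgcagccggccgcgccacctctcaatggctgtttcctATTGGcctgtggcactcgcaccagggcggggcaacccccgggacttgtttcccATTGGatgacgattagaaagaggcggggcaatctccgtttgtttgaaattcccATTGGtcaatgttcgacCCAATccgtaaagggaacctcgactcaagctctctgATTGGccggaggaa
Hsd17b7: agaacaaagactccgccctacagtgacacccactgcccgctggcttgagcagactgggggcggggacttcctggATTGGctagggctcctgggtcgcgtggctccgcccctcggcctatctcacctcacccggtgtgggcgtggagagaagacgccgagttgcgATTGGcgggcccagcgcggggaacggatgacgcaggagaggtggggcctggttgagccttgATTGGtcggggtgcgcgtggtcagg
Msmo1: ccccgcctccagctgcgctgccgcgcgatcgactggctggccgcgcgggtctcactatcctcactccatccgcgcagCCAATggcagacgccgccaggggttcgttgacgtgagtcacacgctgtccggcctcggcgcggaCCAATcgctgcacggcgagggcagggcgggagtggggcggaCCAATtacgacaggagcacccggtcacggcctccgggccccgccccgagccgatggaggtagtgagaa
Insig1: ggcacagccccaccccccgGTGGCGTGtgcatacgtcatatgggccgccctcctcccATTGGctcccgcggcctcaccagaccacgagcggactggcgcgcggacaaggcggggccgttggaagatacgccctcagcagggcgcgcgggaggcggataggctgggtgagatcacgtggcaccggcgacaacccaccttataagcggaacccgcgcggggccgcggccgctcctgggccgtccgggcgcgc

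Mvk, called higher, held 5 boxes, and Msmo1, called lower, and Hsd17b7, called higher, held 3 each. Acat2, Cyp51 and Aacs rose and had no CCAAT in their windows.

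**Figure D3:**
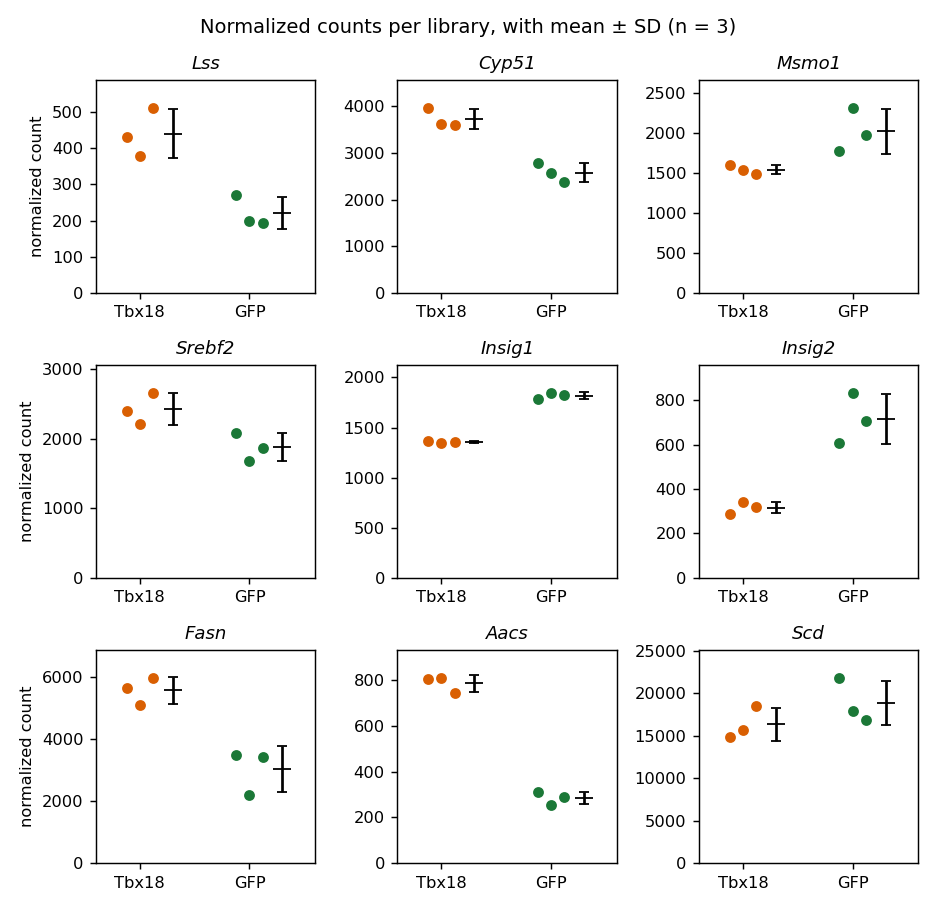
Normalized counts of 9 genes in each library (points; Tbx18 left, GFP right) with the mean ± SD of the 3 libraries beside them. Axes start at 0. Lss, Cyp51, Srebf2, Fasn and Aacs stand higher in every Tbx18 library than in any GFP library, Msmo1, Insig1 and Insig2 lower, and the Scd groups overlap.

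Among the regulators, both Insig genes fell, Srebf2 rose, and Srebf1 and Scap did not pass the test. Insig2, a retention protein of the endoplasmic reticulum, was read at 289, 340.2 and 319 in Tbx18, against 605, 834 and 705 in GFP. The groups were far apart and Insig2 was 2.26-fold lower (limma adjusted p = 0.000125; log2 fold change -1.16 with SE 0.13), a call that held under each of 20 alternatives. Insig1, its paralog and itself a well known SREBP target, was read at 1362, 1342 and 1359.6 in Tbx18, against 1786, 1849 and 1825 in GFP. It was 1.34-fold lower with little spread in either group (limma adjusted p = 0.00125; log2 fold change -0.43 with SE 0.07), but it was not called with equal recovered reads (log2 fold change -0.16, limma adjusted p = 0.0857).

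Srebf2, which encodes the SREBP that chiefly drives cholesterol genes, was read at 2405, 2206 and 2664 in Tbx18, against 2081, 1686 and 1869 in GFP. It was 1.29-fold higher (limma adjusted p = 0.0161; log2 fold change 0.37 with SE 0.10). The call was lost on leaving out Tbx18 replicate 1 (adjusted p = 0.0521) or Tbx18 replicate 3 (adjusted p = 0.0708), leaving 0 regulators called higher. Srebf1, which encodes the SREBP isoforms that chiefly drive fatty acid genes, had 1222, 1170.1 and 1281 in Tbx18, against 1314, 983 and 975 in GFP. The groups overlapped through GFP replicate 1 (limma adjusted p = 0.250). Without that library Srebf1 was called higher (log2 fold change 0.32, limma adjusted p = 0.00960), and 2 regulators were. Scap, the escort protein, had 1519.7 ± 34.5 in Tbx18 and 1462 ± 107 in GFP (SD, n = 3; limma adjusted p = 0.601, 95% interval of the log2 fold change -0.13 to 0.25).

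Of the 4 genes of sterol carriage, LXR and efflux, Stard4 fell and 3 did not pass the test. Stard4, a cytosolic carrier of cholesterol, was read at 277, 281 and 323 in Tbx18, against 483, 410.0 and 352 in GFP. It was 1.41-fold lower without overlap (limma adjusted p = 0.0160; log2 fold change -0.49 with SE 0.14). The call was lost without Tbx18 replicate 1 or Tbx18 replicate 2, with adjusted p of 0.0643 and 0.0589, leaving 0 called lower, and with equal recovered reads, where adjusted p was 0.216. Nr1h3, which encodes LXR alpha, had 82.8 ± 3.40 in Tbx18 and 78.0 ± 14.3 in GFP (SD, n = 3; limma adjusted p = 0.688). The efflux pump gene Abca1 was read at 666, 593 and 873 in Tbx18, against 975, 710.1 and 908 in GFP, with overlapping groups (limma adjusted p = 0.171). It was called lower without Tbx18 replicate 3 (log2 fold change -0.45, limma adjusted p = 0.04998), making 2 called lower. Abcg1, another efflux transporter, had 983, 1048 and 1074 in Tbx18, against 1014, 818 and 896 in GFP (limma adjusted p = 0.144). It was called higher without GFP replicate 1 (log2 fold change 0.27, limma adjusted p = 0.0291), the call then being 1 of 4.

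Of the 7 fatty acid synthesis genes 4 rose and 1 fell, while 2 were not called, with a median log2 fold change of 0.36 (0.62 without GFP replicate 1 and 0.24 without GFP replicate 2). Aacs, which activates acetoacetate for lipid synthesis in the cytosol, was read at 806, 810.5 and 743 in Tbx18, against 309.6, 254 and 287 in GFP. Its 2.78-fold rise had the largest log2 fold change of the 34 genes (1.47, SE 0.11, limma adjusted p = 1.32e-05) and was called under each of 20 alternatives. Fasn, the fatty acid synthase, was read at 5639, 5106 and 5984 in Tbx18, against 3503, 2187 and 3436 in GFP. It was 1.83-fold higher, with GFP replicate 2 lowest (limma adjusted p = 0.00174; log2 fold change 0.90 with SE 0.17). Acly, which splits citrate to supply acetyl-CoA, was read at 2998, 2966 and 3415 in Tbx18, against 2692, 2232 and 2589 in GFP. It was 1.25-fold higher (log2 fold change 0.32, limma adjusted p = 0.0227), a call lost without Tbx18 replicate 1, Tbx18 replicate 3 or GFP replicate 2, with adjusted p of 0.0516, 0.0938 and 0.0605.

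Elovl6, the elongase that extends palmitate, was a low gene at 33.1, 41.0 and 36.0 in Tbx18, against 18.1, 11.1 and 21.9 in GFP. It was 2.16-fold higher (limma adjusted p = 0.0145; log2 fold change 1.11 with SE 0.31), and was not called without Tbx18 replicate 2 (1.03, adjusted p = 0.0626) or after quantile normalization (0.50, adjusted p = 0.203). The acetyl-CoA carboxylase genes went apart. Acacb, whose product at the mitochondrial surface makes the malonyl-CoA that restrains fatty acid oxidation, was read at 855, 904 and 978 in Tbx18, against 1337, 1090.5 and 1698 in GFP. It was 1.51-fold lower without overlap (limma adjusted p = 0.0101; log2 fold change -0.57 with SE 0.15), but not called with equal recovered reads (-0.31, adjusted p = 0.118). Acaca, whose cytosolic product feeds synthesis, was read at 975, 829.9 and 1156 in Tbx18, against 1079.7, 596.5 and 681 in GFP. GFP replicate 1 made the groups overlap (log2 fold change 0.36, limma adjusted p = 0.175), and without it Acaca was called higher (0.62, adjusted p = 0.00336). Scd, a desaturase that makes oleate, had 14831, 15643 and 18530.2 in Tbx18, against 21836, 17911 and 16869.6 in GFP. Its groups overlapped (limma adjusted p = 0.203, 95% interval of the log2 fold change -0.48 to 0.07), so a rise as large as that of Fasn lay outside its interval.

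Ratios of 2 genes within a library do not depend on the scaling. They are given as multiples of the GFP mean of each ratio, for pairs picked after the values were seen and hence without a test. Acaca over Acacb stood at 1.95, 1.57 and 2.02 in Tbx18, against 1.38, 0.93 and 0.69 in GFP. Fasn over Scd stood at 2.35, 2.01 and 1.99 in Tbx18, against 0.99, 0.75 and 1.26 in GFP. Both ratios were higher in every Tbx18 library than in any GFP library. In the sterol route, Cyp51 over Msmo1 stood at 1.92, 1.81 and 1.88 in Tbx18, against 1.21, 0.86 and 0.93 in GFP. Srebf2 over Insig2 stood at 3.08, 2.399 and 3.08 in Tbx18, against 1.27, 0.75 and 0.98 in GFP, and Srebf2 over Insig1 at 1.71, 1.59 and 1.90 in Tbx18, against 1.13, 0.88 and 0.99 in GFP. Lss over Sqle averaged 2.24 ± 0.53 in Tbx18 and 1 ± 0.097 in GFP (SD, n = 3).

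Within groups, some libraries stood apart. In GFP replicate 1, 23 of the 34 genes lay above the GFP mean, by a median of 0.11 on the log2 scale over the 34, and 6 of 7 fatty acid genes did. That library also stood apart from the other GFP libraries on the second principal component of all genes tested (27.9, against -15.4 and -8.63). In GFP replicate 2 all 7 fatty acid synthesis genes lay below the GFP mean, by a median of -0.31 on the log2 scale, while 5 of 7 mevalonate genes lay above theirs. In GFP replicate 3 all 7 mevalonate genes lay below it, by a median of -0.07, and 5 of 7 fatty acid genes above. Among the Tbx18 libraries the sterol enzymes were highest in replicate 1, where 14 of 18 lay above the mean, and the fatty acid genes in replicate 3, where 5 of 7 did. The genes of a library share its depth and scaling, and no test was made.

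Genes around the 34 changed in both directions, as did all genes tested, of which 22.5% were called higher and 23.5% lower. The counts of the 5 wider lists that follow are to be read beside those shares. Among 13 isoprenoid and later sterol genes 5 rose and 3 fell. Cyp7b1, a hydroxylase of oxysterols, had 43.3, 63.5 and 59.7 in Tbx18, against 29.8, 34.6 and 26.5 in GFP (log2 fold change 0.84, limma adjusted p = 0.0168). It was not called without Tbx18 replicate 2 (0.74, adjusted p = 0.0784), without Tbx18 replicate 3 (0.78, adjusted p = 0.0669) or after quantile normalization (0.34, adjusted p = 0.260). Cyp27a1, the mitochondrial enzyme that makes an oxysterol from cholesterol, fell to 358 ± 5.06 in Tbx18, against 556 ± 135 in GFP (SD, n = 3; log2 fold change -0.61, limma adjusted p = 0.0101; -0.34 and 0.0929 with equal recovered reads). The row RGD1310769, an older name of Erg28, a scaffold of sterol enzymes, rose 1.43-fold (limma adjusted p = 0.00296). The counts of this list were 3 higher and 2 lower when Tbx18 replicate 1, Tbx18 replicate 2 or GFP replicate 2 was left out, and 2 higher and 2 lower when Tbx18 replicate 3 was.

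Of 12 genes of SREBP processing and sterol sensing 3 rose and 2 fell. Mylip, the ubiquitin ligase that LXR switches on and that degrades lipoprotein receptors, had 159, 184 and 215 in Tbx18, against 86.2, 81.5 and 77.1 in GFP, a 2.28-fold rise (limma adjusted p = 0.000343). Rnf139, a sterol-sensing ubiquitin ligase, fell 1.56-fold (limma adjusted p = 0.000409), and Osbp, an oxysterol binding protein, 1.37-fold (limma adjusted p = 0.000810). Of 13 genes of sterol storage and uptake 2 rose and 4 fell. Abcg4, a sterol exporter related to Abcg1, had 129, 108 and 137 in Tbx18, against 38.3, 29.6 and 25.3 in GFP, a 4.00-fold rise (limma adjusted p = 9.65e-05). Lrp1, a broad endocytic receptor, rose 1.90-fold (limma adjusted p = 0.00104). Star, the carrier that brings cholesterol into mitochondria, had 21.2, 23.6 and 24.6 in Tbx18, against 48.9, 112 and 52.9 in GFP, and fell 3.09-fold (limma adjusted p = 0.00424). Vldlr, a lipoprotein receptor of heart and muscle named after its values were seen, was read at 4017, 3992 and 4125 in Tbx18, against 7713, 7675 and 7564 in GFP, and fell 1.89-fold (limma adjusted p = 1.69e-05).

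Of 22 tested genes of fatty acid elongation, desaturation and precursor supply 4 rose and 5 fell. Mlxipl, the carbohydrate-responsive factor that works beside SREBP in liver, fell to 28.0 ± 4.64 in Tbx18, against 73.0 ± 21.3 in GFP (SD, n = 3; limma adjusted p = 0.00283). Rows Ptplad2 and Ptpla, older names of the dehydratases Hacd4 and Hacd1, moved apart. Ptplad2 rose 1.91-fold (limma adjusted p = 0.00913) and Ptpla fell 1.57-fold (limma adjusted p = 0.00113). Of 17 tested genes of glycerolipid synthesis and lipid droplets 1 rose and 7 fell. Plin5, a droplet coat protein of oxidative tissues, had 20.3, 29.7 and 13.2 in Tbx18, against 78.7, 93.9 and 138 in GFP, a 4.92-fold fall (limma adjusted p = 0.000412). Cidea, another droplet protein, fell 2.49-fold (limma adjusted p = 0.000182), and Lpin1, a phosphatidate phosphatase, 1.68-fold (limma adjusted p = 0.00328). In that list 0 genes were called higher without Tbx18 replicate 1, and 2 without GFP replicate 1. The median log2 fold changes of these 5 lists were 0.24, -0.06, -0.20, -0.05 and -0.15 in the order given. Without GFP replicate 2 the medians were -0.0088 for SREBP processing, -0.12 for storage and uptake and 0.0059 for fatty acid elongation. Without GFP replicate 1 they were -0.11 for SREBP processing and -0.14 for fatty acid elongation, and the glycerolipid median was -0.28. SREBP processing had -0.026 without Tbx18 replicate 1, and fatty acid elongation had -0.083 without that library and -0.11 without GFP replicate 3. The isoprenoid and glycerolipid medians were 0.12 and -0.063 without GFP replicate 3. With equal recovered reads the counts higher and lower were 8 and 0, 5 and 2, 6 and 3, 8 and 4, and 4 and 5. The list counts under that scaling are to be read beside 4792 genes higher and 1351 lower among all 11251 tested.

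**Figure D4:**
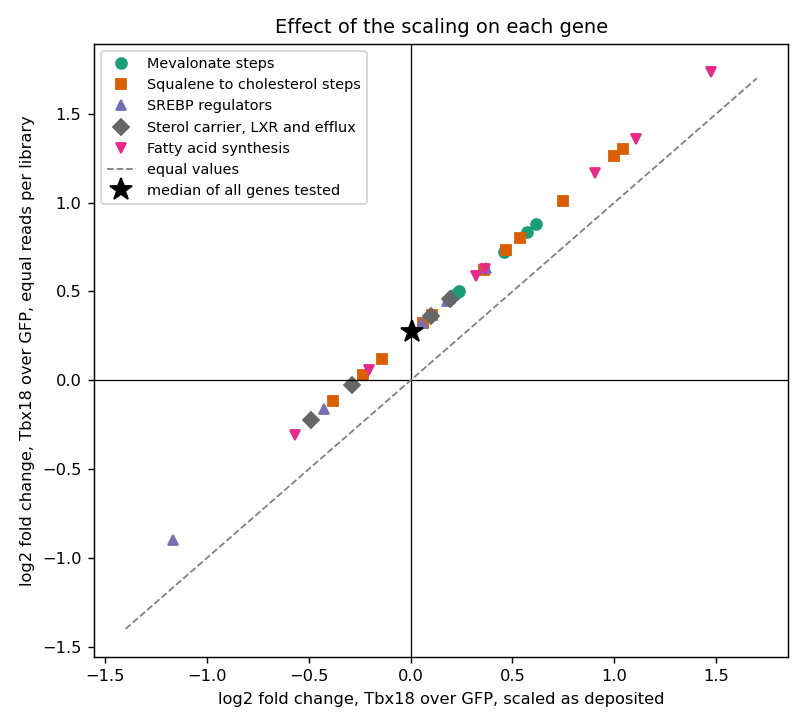
Log2 fold change of each of the 34 genes, Tbx18 over GFP, scaled as deposited (x axis) and with equal recovered reads per library (y axis), by role. The points lie above the dashed line of equal values, as does the median of all genes tested (star, 0.01 as deposited and 0.27 with equal reads), and Insig2 is the gene still called lower.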

How the data were processed

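Gene expression was measured by RNA sequencing in 6 libraries with a stranded mRNA kit (input 100 ng total RNA, paired 101 bp reads), per the labels' protocols. The tools listed in the submitters' processing notes, with no role stated, are STAR 2.4.0g1, bcl2fastq 2.17.1.14, DESeq2 1.10.1 and HTSeq. For build, annotation and strandedness the entry is "not given in the sources used here". Counts of genes that overlap others or have close paralogs are therefore less certain. The deposited signal is, per the file headers, a table of DESeq2-normalized counts, read counts that the authors divided by 1 size factor per library. All values (100%) were whole multiples of a column's smallest step within 0.01, which gave recovered reads. Those range from 17074483 to 19800300 per library. Replicates differed by more than sampling noise (chi-square per degree of freedom 4.63 to 31.7 over the pairs).

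The 11230 genes whose mean reached 10 were tested, as log2 of the value plus 1, in limma 3.58.1 (R 4.3.3) with a mean-variance trend and no block. Folds are ratios of group means, while log2 fold changes come from the fit and understate low genes. The 34 genes, the role groups and the lists were chosen with earlier results of these data known. All 34 are reported, with the 3 called genes of largest change from each of 5 further lists; of their symbols, Ufd1, Lrp8, Hacd2, Scd2, Scd4, Plin3, Plin4 and Pnpla3 were not matched, nor were the markers Plin4, Upk3b and Lrrn4. The alternatives were 5 scalings, pseudocounts of 0.5 and 5, no filter or a mean of 50, limma without trend or robust, recovered reads in DESeq2 1.42.0 and in edgeR 4.0.16, blocking on replicate number and leaving out each library. The limma steps were tested on simulated counts.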

Additional observations from a re-analysis of the deposited data

How the results depend on the processing

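No direction of a called gene among the 34 reversed under the 20 alternatives. Of 679 gene results under alternatives, 632 kept their call, 31 lost it and 16 gained it, spread over 20 genes; the other 14 genes kept theirs throughout. Among genes of the wider lists, Nus1 had a log2 fold change of -0.25 as deposited and 0.0090 with equal recovered reads, and Ubxn4 had -0.04 and 0.22; the cause was not tested. Scaling to equal recovered reads moved most values. The genes called became 23 higher and 1 lower of the 34, against 4792 higher and 1351 lower of all 11251 genes tested. By role, it gave 0 lower among squalene to cholesterol steps, 3 higher and 1 lower among regulators, 1 higher and 0 lower among carriage, LXR and efflux, and 0 lower among fatty acid genes. Medians of the log2 fold change became 0.50 for mevalonate, 0.62 for squalene to cholesterol, 0.32 for regulators, 0.17 for carriage, LXR and efflux, 0.63 for fatty acid synthesis and 0.49 for all 34. For the wider lists they became 0.50, 0.20, 0.067, 0.21 and 0.11 in the order of the report, against 0.27 for all genes.

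Quantile normalization gave medians of 0.43 for mevalonate, 0.22 for squalene to cholesterol (0 called lower), 0.17 for regulators, 0.13 for isoprenoid and later sterol genes and -0.27 for glycerolipid genes. The isoprenoid median was 0.31 with upper-quartile scaling and 0.19 with DESeq2. The storage and uptake median was 0.064 with a minimum mean of 50, where fewer genes were tested. Without the limma trend 3 mevalonate genes were called higher. When 1 library was left out, the counts called ran from 3 to 5 for mevalonate higher, 0 to 2 for squalene to cholesterol lower, 0 to 2 for regulators higher, and for carriage, LXR and efflux 0 to 1 higher and 0 to 2 lower. The share of all genes tested that was called ran from 35.3% to 52.1% in those fits. Medians ran from 0.21 to 0.34 for mevalonate, 0.23 to 0.42 for squalene to cholesterol, 0.12 to 0.31 for isoprenoid genes, -0.11 to -0.0088 for SREBP processing, -0.22 to -0.12 for storage and uptake, -0.14 to 0.0059 for fatty acid elongation and -0.28 to -0.063 for glycerolipid genes. The deviations of same-numbered libraries of both groups had r from -0.00474 to 0.15 across genes, and those of other pairs from -0.14 to 0.11. With 3 libraries per group these values cannot decide whether the numbers pair the libraries. With a replicate block 14 of the 34 genes were called higher and 5 lower, Idi1 being the call lost (limma adjusted p = 0.0680). The libraries' depth was even, so precision is limited by 3 libraries per group and by low genes such as Elovl6, Hsd17b7 and Nr1h3.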
